A study of Homo sapiens with 29 samples.

Results

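TXNIP and 5 genes tied to it by family, binding or glucose sensing were measured by 13 of the 54675 probe sets of an Affymetrix 3′ expression array, and they are 6 of the 19775 genes with a probe set of 1 symbol. The members were all probe sets annotated to TXNIP, ARRDC3, ARRDC4, TXN, MLXIP or SLC2A1, of which 3 belonged to TXNIP, 1 each to ARRDC3 and ARRDC4, 2 each to TXN and SLC2A1, and 4 to MLXIP. The RNA came from BEAS-2B, an immortalized human bronchial epithelial cell line grown in LHC-9 medium, after 24 h with N-OH-PhIP, the hydroxylamine metabolite of the heterocyclic amine PhIP found in cooked meat and tobacco smoke. The study asked at what low dose a transcriptional effect could no longer be seen. The 10 groups were DMSO alone and N-OH-PhIP at 0.1, 0.5, 1, 5, 10, 50, 100, 500 and 1000 nM, and all 29 cultures, controls included, held 1% DMSO. The labels describe triplicate cultures, and 3 arrays were analysed for every group but 0.5 nM, which had 2. In a culture measured in bulk, fewer cells of a kind and less RNA per cell cannot be told apart.

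TXNIP encodes thioredoxin-interacting protein, an alpha-arrestin that binds thioredoxin and restrains glucose uptake, in part by drawing the glucose transporter GLUT1 from the cell surface. Its transcription is driven by MondoA, the product of MLXIP, which pairs with MLX and moves to the nucleus when glucose 6-phosphate rises. ARRDC4 is the other alpha-arrestin gene known as a strong MondoA target, and such targets carry E-box-like carbohydrate response elements near their start sites.

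The promoters of TXNIP and ARRDC4 are shown because the levels of these genes moved together across the arrays. Each is the 250 bases before the annotated start in RefSeq, build GRCh38.p14, read 5′ to 3′ on the strand of the gene. TXNIP lies at chr1:145996580-145996829 on the minus strand, and ARRDC4 lies at chr15:97960453-97960702 on the plus strand. The capitals mark matches to the searched motifs CACGTG and CACGAG.
TXNIP: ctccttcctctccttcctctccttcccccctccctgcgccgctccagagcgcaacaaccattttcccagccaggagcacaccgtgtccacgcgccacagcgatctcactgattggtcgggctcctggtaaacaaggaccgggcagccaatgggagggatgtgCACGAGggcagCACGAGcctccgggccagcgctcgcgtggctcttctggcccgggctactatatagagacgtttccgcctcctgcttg
ARRDC4: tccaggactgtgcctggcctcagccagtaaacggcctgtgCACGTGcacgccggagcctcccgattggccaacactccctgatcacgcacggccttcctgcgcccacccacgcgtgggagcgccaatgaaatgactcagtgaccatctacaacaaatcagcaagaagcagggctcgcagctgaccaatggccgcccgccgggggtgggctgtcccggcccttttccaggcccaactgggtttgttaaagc
The TXNIP promoter held CACGAG at positions -88 to -83 and again at -77 to -72, counted from the start, and together these matched a tandem motif, a pair of CACGNG copies 5 bases apart, which contains them. The ARRDC4 promoter held CACGTG at -210 to -205. Both strands were searched in 35116 promoter entries of the same length. CACGTG was found in 6.34% of them, CACGAG in 5.58%, and the tandem motif in 16 entries, or 0.0456%. RefSeq lists another start for TXNIP, and neither its window nor those of ARRDC3, TXN, MLXIP and SLC2A1 matched any of the 3 motifs. A match is a description of the letters and does not show binding.

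Levels below are the authors' intensities, given as mean ± SD with n = 3 unless stated, and changes are differences of log2(intensity + 16) ± SE. A probe set is called when its adjusted p in the limma fit over 27307 tested probe sets, with Benjamini-Hochberg adjustment, is under 0.05. Of the 13 member probe sets 11 were bright enough to be tested, and the other 2, both for MLXIP, had group means of 10.3 to 41.1. The members were chosen on measured levels of this dose series, and which comparisons were used is not recorded, so every comparison is treated as used, the members' values are a description and their calls support nothing. Levels of different probe sets are not compared with each other.

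The data show a level of TXNIP mRNA that was below DMSO from 0.1 to 5 nM, called among these doses at 1 and 5 nM only. It was at the DMSO level from 10 to 100 nM, and low again at 500 and 1000 nM. In the DMSO arrays, the brightest of its 3 probe sets read 3148, 3453 and 3413, a mean of 3338 ± 166. At 1 nM it read 891, 1514 and 1907, and at 5 nM 1137, 2455 and 1230. All 6 of these arrays lay below every DMSO array, and within both doses the arrays were spread more widely (SD 512 and 735) than those of DMSO. The changes were -1.27 ± 0.21 at 1 nM and -1.14 ± 0.21 at 5 nM, and the mean levels stood at 43.1% and 48.2% of DMSO.

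The 3 arrays at 10 nM read 3658, 3066 and 3130, those at 50 nM 3436, 3059 and 2614, and those at 100 nM 3192, 3219 and 3373. These 3 doses overlapped DMSO, with changes of -0.03, -0.14 and -0.03. At 500 nM the arrays read 2275, 1858 and 2186, and at 1000 nM 1130, 1432 and 1359. Neither of the top doses overlapped DMSO or each other, and the changes were -0.66 ± 0.21 and -1.35 ± 0.21, which left 63.1% and 39.2% of the DMSO level. The change from 500 to 1000 nM was -0.68 ± 0.21.

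Values below DMSO were also seen under 1 nM. At 0.1 nM the arrays of the brightest probe set read 1970, 2244 and 2349, and at 0.5 nM 2838 and 2815. All 5 lay below every DMSO array in all 3 TXNIP probe sets, with changes in the brightest of -0.61 ± 0.21 at 0.1 nM and -0.24 at 0.5 nM, neither of them called. Ordered by mean level, the groups ran from DMSO through 10, 100, 50, 0.5, 0.1, 500, 5 and 1 nM to 1000 nM. In this order of the brightest probe set, 0.5 and 0.1 nM were the only neighbours whose arrays did not overlap. The dose trend over the 26 treated arrays was -0.01 ± 0.08 per 10-fold dose and was not called.

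**Figure D1:**
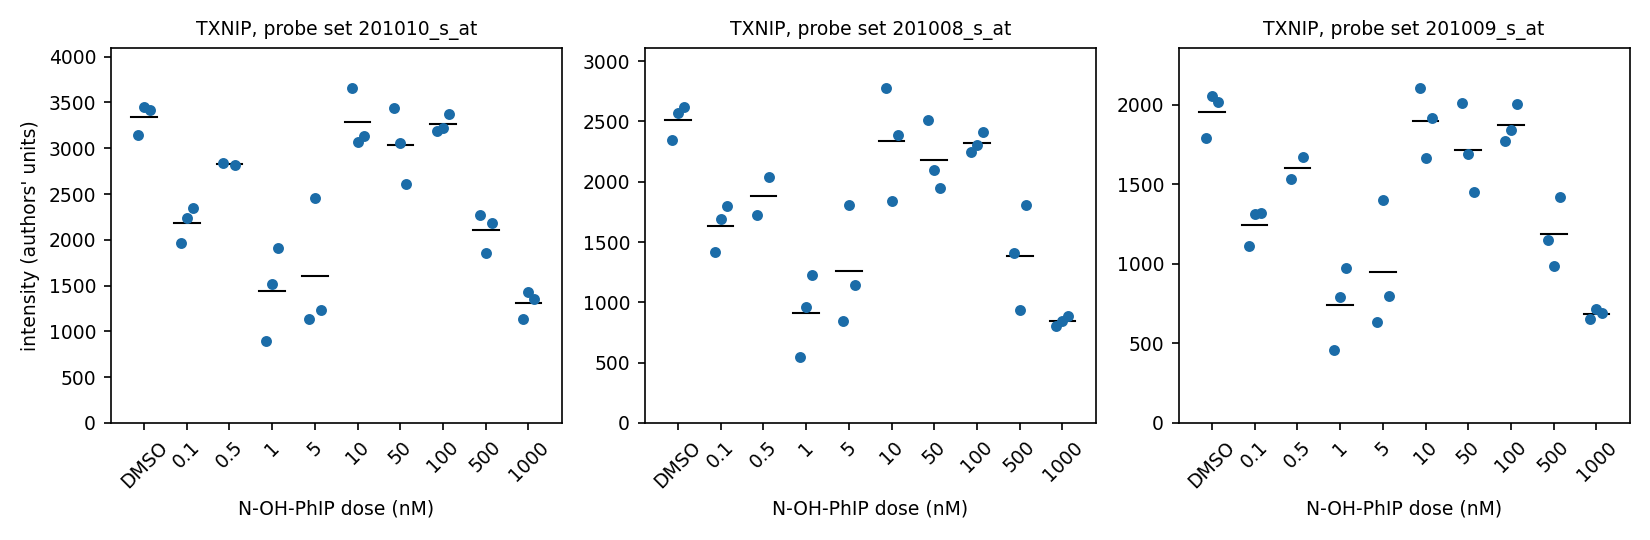
Intensity of the 3 TXNIP probe sets against N-OH-PhIP dose, with 1 point per array and bars at the group means. All 3 probe sets lie below DMSO from 0.1 to 5 nM, further below at 1 and 5 nM. They are near DMSO from 10 to 100 nM, and low at 500 and 1000 nM.

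The other TXNIP probe sets gave the same course. Over the 29 arrays the 3 probe sets correlated pairwise at r = 0.964 to 0.989, across arrays that share the group differences. In the probe set next in brightness the change at 1 nM was -1.52 ± 0.24, that at 5 nM -1.05 ± 0.24, that at 500 nM -0.90 ± 0.24 and that at 1000 nM -1.55 ± 0.24. In the dimmest it was -1.44, -1.11, -0.73 and -1.49 at the same doses, each ± 0.21. Ranked from the lowest among all 27307 changes at 1 nM, the TXNIP probe sets held places 3, 4 and 7. At 5 nM they held places 5, 8 and 9, and at 1000 nM, where far more genes had moved, places 204, 242 and 369.

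Of the 11 tested member probe sets, 4 were called lower at 1 nM, the 3 of TXNIP and that of ARRDC4, where 0.575% of all tested probe sets were called lower. At 5 nM 3 were called lower, all of TXNIP, against 0.769% of all. None was called higher at either dose, where 0.205% and 0.337% of all were, and 4 had an unadjusted p under 0.05 at each, as did 12.9% and 15.2% of all. At 500 nM 4 were called higher and 3 lower, where 23.1% of all were called higher and 22.3% lower. At 1000 nM 7 were called higher and 3 lower, against 28.9% and 31% of all. The limma fit called 0 members at 0.1, 0.5, 10, 50 and 100 nM, where it called 0.597%, 0.0439%, 0.242%, 0.264% and 2.9% of all probe sets. At an unadjusted p under 0.05 those doses had 5, 1, 1, 0 and 2 member probe sets, where 12.4%, 10.7%, 13.4%, 8.84% and 15.3% of all passed it. From 500 to 1000 nM 2 members were called higher and 3 lower, against 17.7% and 25.6% of all. Along the dose trend 7 were called higher and 0 lower, against 30.6% and 28.9%. All comparisons with DMSO share its 3 arrays.

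The calls of TXNIP at 5 nM rested on few arrays. Without 5 nM replicate 1 none of the 3 probe sets was called, with changes of -0.80 to -0.93, and without DMSO replicate 2 none was called either, with changes of -1.03 to -1.11. The probe set next in brightness also lost its call without DMSO replicate 1, DMSO replicate 3 or 5 nM replicate 3 (-1.10, -1.02 and -1.01). With only the arrays of a dose and DMSO in the fit, the 3 calls at 5 nM were lost, and TXNIP in all 3 probe sets (-0.61, -0.62 and -0.64) and ARRDC4 (-0.55) were called lower at 0.1 nM. With the 0.1 and 1 nM arrays, themselves below DMSO in TXNIP, in place of DMSO, TXNIP at 500 nM turned to 0.17 to 0.31.

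Actin and GAPDH control probes gave a 3′ over 5′ ratio, a measure of RNA and amplification quality, whose log2 value in DMSO was 1.18 ± 0.04. For 1 and 5 nM it was 1.35 ± 0.06 and 1.25 ± 0.06, and for 500 and 1000 nM 0.93 ± 0.08 and 0.84 ± 0.02. The ratio is the mean of both controls, which moved opposite ways at the top doses. Actin was 2.21 in DMSO, 1.67 at 500 nM and 1.52 at 1000 nM, and GAPDH was 0.14, 0.20 and 0.17. At 1 and 5 nM both lay above DMSO. Single arrays had ratios of 1.13 to 1.21 in DMSO and 1.31 to 1.42 at 1 nM. They had 0.86 to 1.02 at 500 nM and 0.82 to 0.86 at 1000 nM. None of these 3 doses overlapped DMSO, so the ratio and the dose cannot be told apart there. Why a call was lost with the ratio in the fit was not tested. With this ratio in the fit the changes at 1 nM were -1.18 to -1.29 and no longer called. At 1000 nM the change of the brightest probe set was -1.31 ± 0.41 and remained called, and at 500 nM it was -0.64 and not called. The other 2 TXNIP probe sets kept their calls, at -1.37 and -0.95 at 500 nM and at -2.19 and -1.79 at 1000 nM.

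ARRDC4 encodes an alpha-arrestin that, like TXNIP, acts on GLUT1. Its probe set read 766, 744 and 882 in DMSO. At 1 nM it read 345, 471 and 542, at 5 nM 364, 722 and 499, and at 0.1 nM 490, 582 and 552. All 9 of these arrays lay below every DMSO array. The change was -0.81 ± 0.17 at 1 nM, which was called, and -0.63 ± 0.17 at 5 nM and -0.55 ± 0.17 at 0.1 nM, which were not. Ranked from the lowest among all changes, ARRDC4 held place 22 at 1 nM and place 77 at 5 nM. At 0.5 nM the ARRDC4 arrays read 917 and 751 (n = 2) and overlapped DMSO. The change there was 0.06 and not called, while both TXNIP arrays of that dose lay below DMSO.

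At 10 nM ARRDC4 read 939, 949 and 919, all above DMSO, with a change of 0.23 that was not called. At 50 and 100 nM its arrays overlapped DMSO, with a change of 0.02 at each. At 500 nM the arrays read 610, 646 and 718, and at 1000 nM 542, 694 and 658, so that both doses lay below DMSO. Their changes of -0.27 ± 0.17 and -0.33 ± 0.17 were not called, and from 500 to 1000 nM the change was -0.06 ± 0.17, where that of TXNIP was called. With only the 1000 nM and DMSO arrays in the fit the change at 1000 nM was called. The call at 1 nM was lost without DMSO replicate 2 (-0.86), DMSO replicate 3 (-0.74) or 1 nM replicate 1 (-0.64), and with the 3′ to 5′ ratio in the fit (-0.82). Without 5 nM replicate 2 the change at 5 nM was -0.87 and was called.

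Replicate cultures of 1 dose mostly differed in TXNIP and in ARRDC4 in the same direction. The 5 nM arrays show it: replicate 2 was the highest in TXNIP (2455) and in ARRDC4 (722), and at 1 nM replicate 1 was the lowest in both (891 and 345). After each group's mean was subtracted, the deviations of the log2 values had a Pearson r of 0.86 and a Spearman rho of 0.72 over the 29 arrays. This was chosen after seeing the data, as 1 of 6 relations of TXNIP, and in permutations within groups (100000, two-sided) p was 0.00028 for r and 0.0011 for rho, or 0.0017 and 0.0068 after Benjamini-Hochberg adjustment. The adjustment covers the 6 relations and not the choice of the members on these same data. These p-values are therefore a description and support nothing. The deviations had the same sign in 26 of 29 arrays. Opposite signs were found in DMSO replicate 2, 10 nM replicate 2 and 500 nM replicate 1. Without the 2 arrays farthest in TXNIP, 5 nM replicate 2 and 1 nM replicate 1, r was 0.77, and over the 23 arrays left without 1 and 5 nM it was 0.67.

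The same permutations gave no adjusted p under 0.05 for the other members, and they too are a description and support nothing. Over all 29 arrays r for ARRDC3 was 0.27 and rho 0.45, with permutation p of 0.15 and 0.043 and adjusted values of 0.44 and 0.13. For TXN r was 0.09 (permutation p = 0.75), for MLXIP -0.03 (permutation p = 0.95) and for SLC2A1 -0.14 (permutation p = 0.43). For the 3′ to 5′ ratio r was 0.02 (permutation p = 0.95). Over the 23 arrays without 1 and 5 nM, where ARRDC4 had 0.67, r was 0.61 for ARRDC3 and 0.59 for TXN, and it was -0.29 for MLXIP, -0.20 for SLC2A1 and -0.30 for the 3′ to 5′ ratio. Among 12173 genes ranked over all arrays by this r, with no test, ARRDC4 held place 1 and KLF10, a zinc-finger repressor on the list of MondoA and ChREBP targets, place 2 with r = 0.80. EPHA2 (0.75), CCNT1 (0.73) and MICB (0.69) came next. The other targets were spread from place 208 for LDHA to place 11940 for ACACB.

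KLF10 shared part of the course of TXNIP over the doses and departed from it at the top. DMSO cultures had a level of 854 ± 23.8, against 590 ± 93.6 at 1 nM and 643 ± 186 at 5 nM. These changes were -0.53 and -0.44 and were not called (limma, Benjamini-Hochberg adjusted p = 0.0685 and 0.119). The level was 627 ± 69.0 at 0.1 nM and 867 ± 96.3 at 0.5 nM (n = 2), with no call. At 500 and 1000 nM, where TXNIP was lower, KLF10 rose to 1111 ± 212 and 1148 ± 31.0, by 0.36 and 0.42 (limma, adjusted p = 0.039 and 0.0114).

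**Figure D2:**
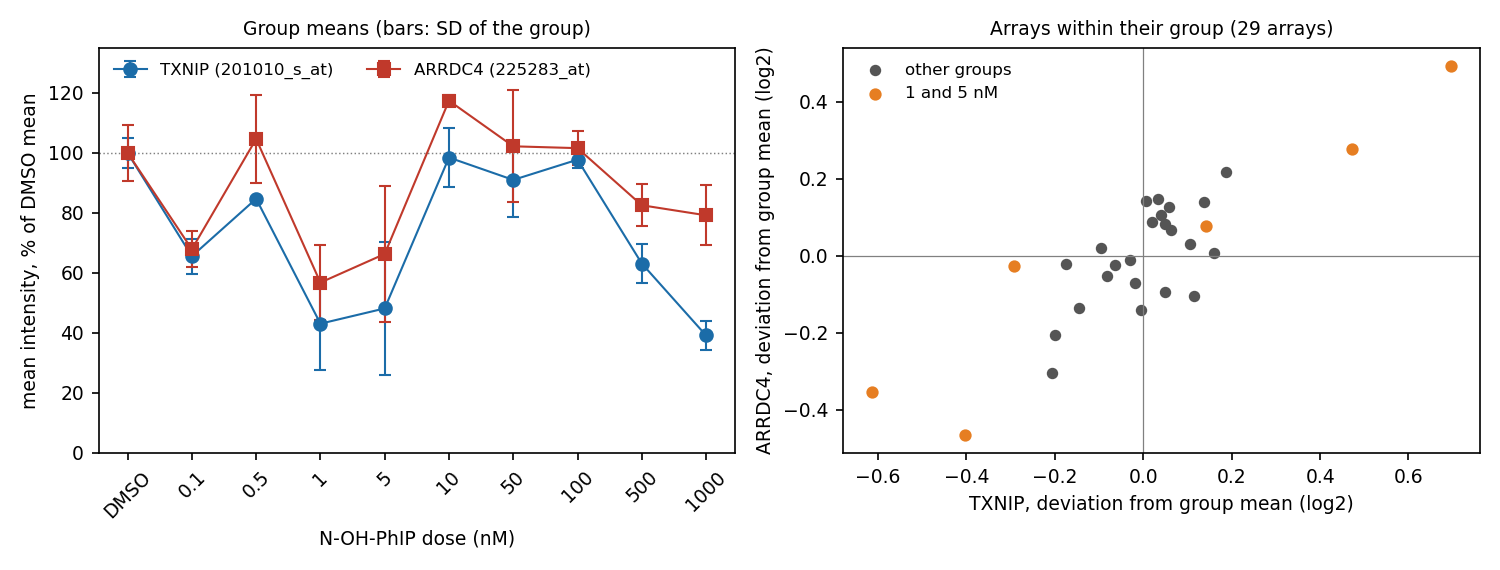
Left, mean intensity of TXNIP (brightest probe set) and ARRDC4 as a percent of DMSO against dose, with SD bars; right, deviation of each array's log2 value from its group mean in ARRDC4 against TXNIP, with the 1 and 5 nM arrays in orange. The genes are low together at 0.1, 1 and 5 nM, and at 0.5 nM only TXNIP has a mean below DMSO. TXNIP is the lower at 1000 nM, and the deviations of the 29 arrays mostly follow each other (r = 0.86).

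Over the 10 group means, the gene most like TXNIP among 2455 whose means spanned at least 1 on the log2 scale was ARRDC4, at r = 0.86. Next came ST6GAL1 (0.67), SH3RF2 (0.65), MBD5 (0.64) and TMCC1 (0.64). Measured the same way, the genes most like ARRDC4 were TXNIP and EGR1 (0.73), an immediate-early transcription factor. EGR1 had a mean of 591 ± 63.8 in DMSO, 160 ± 65.2 at 1 nM, 148 ± 40.7 at 5 nM and 656 ± 79.1 at 1000 nM. These correlations describe 10 points, each a mean of arrays that share the amplification and the array type.

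ARRDC3 encodes an alpha-arrestin that acts on adrenergic receptors and integrin, and its probe set was higher where TXNIP was lowest. In DMSO it read 511, 586 and 526. At 1000 nM it read 848, 1239 and 980, all above DMSO, and the change was 0.88 ± 0.18. Group means from 0.1 to 100 nM ran from 467 to 563 with no call. At 1 nM, where TXNIP was called lower, the change of ARRDC3 was -0.19 ± 0.18. At 500 nM the arrays read 737, 404 and 1003, so that replicate 2 lay below DMSO and the other 2 above it. The change there was 0.30 ± 0.18 and not called, and it was 0.66 and called without replicate 2, 0.23 without replicate 1 and 0.02 without replicate 3. With the 3′ to 5′ ratio in the fit the change at 1000 nM was 0.14 ± 0.32 and not called, and at 500 nM it was -0.24 ± 0.26.

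MLXIP encodes MondoA, the glucose-responsive activator of TXNIP. Its dimmer tested probe set read 215, 237 and 221 in DMSO, 278, 312 and 261 at 500 nM, and 305, 280 and 301 at 1000 nM. Both top doses lay above DMSO and overlapped each other, with changes of 0.31 ± 0.08 and 0.37 ± 0.08. The call at 500 nM was lost with only the 500 nM and DMSO arrays in the fit. The brighter probe set read 1025, 1057 and 1076 in DMSO and 1343, 1244 and 1188 at 1000 nM, a change of 0.25 ± 0.10. At 500 nM it read 1218, 1314 and 900, with 1 array below DMSO, and its change of 0.10 ± 0.10 was not called. That change was 0.26 and called without 500 nM replicate 3, 0.05 without replicate 1 and -0.0068 without replicate 2. The call of the brighter probe set at 1000 nM was lost without DMSO replicate 1 (0.23), DMSO replicate 2 (0.26) or 1000 nM replicate 1 (0.21). With the 3′ to 5′ ratio in the fit the brighter probe set was called at both doses, at 0.39 and 0.65, and so was the dimmer, at 0.41 and 0.50. At 1 and 5 nM the changes of both probe sets lay between -0.07 and -0.10, with no call.

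SLC2A1 encodes GLUT1, the basal glucose transporter on which TXNIP acts. Its brighter probe set read 585, 563 and 579 in DMSO, 690, 788 and 773 at 500 nM, and 989, 796 and 806 at 1000 nM. Every array of the top doses lay above DMSO, and the changes were 0.37 ± 0.08 and 0.57 ± 0.08. At 0.5 nM both arrays, 719 and 667, also lay above DMSO, with a change of 0.26 that was not called. At 10 nM the arrays read 643, 708 and 657, and at 5 nM 587, 625 and 643, all above DMSO, with changes of 0.21 ± 0.08 and 0.10 ± 0.08 that were not called. The dimmer probe set, near the minimum for testing, read 35.8, 39.7 and 44.9 in DMSO and 105, 70.3 and 86.0 at 1000 nM, a change of 0.87 ± 0.15. At 500 nM it read 45.6, 71.3 and 64.4, a change of 0.43 ± 0.15 whose call was lost without DMSO replicate 1 (0.38), 500 nM replicate 2 (0.33) or 500 nM replicate 3 (0.39). With the 3′ to 5′ ratio in the fit both calls of SLC2A1 at 500 nM were lost, at 0.32 ± 0.13 and 0.55 ± 0.23, and both at 1000 nM were kept.

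TXN encodes thioredoxin, the disulfide reductase that TXNIP binds, and its change at 1000 nM was the smallest among the tested members. The probe set with the larger change read 6158, 6214 and 6301 in DMSO and 6585, 6870 and 7028 at 1000 nM. The groups did not overlap, and the change was 0.13 ± 0.03, a ratio of 1.10. At 500 nM it read 6753, 6373 and 6587, a change of 0.08 ± 0.03 whose call was lost without DMSO replicate 1 (0.07) or 500 nM replicate 1 (0.06). The other probe set had a change of 0.11 ± 0.03 at 1000 nM, which was called, and of 0.06 ± 0.03 at 500 nM, which was called (0.08) only without 500 nM replicate 2 among the single arrays left out. With the 3′ to 5′ ratio in the fit neither call at 1000 nM was kept (0.12 ± 0.05 and 0.09 ± 0.06).

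**Figure D3:**
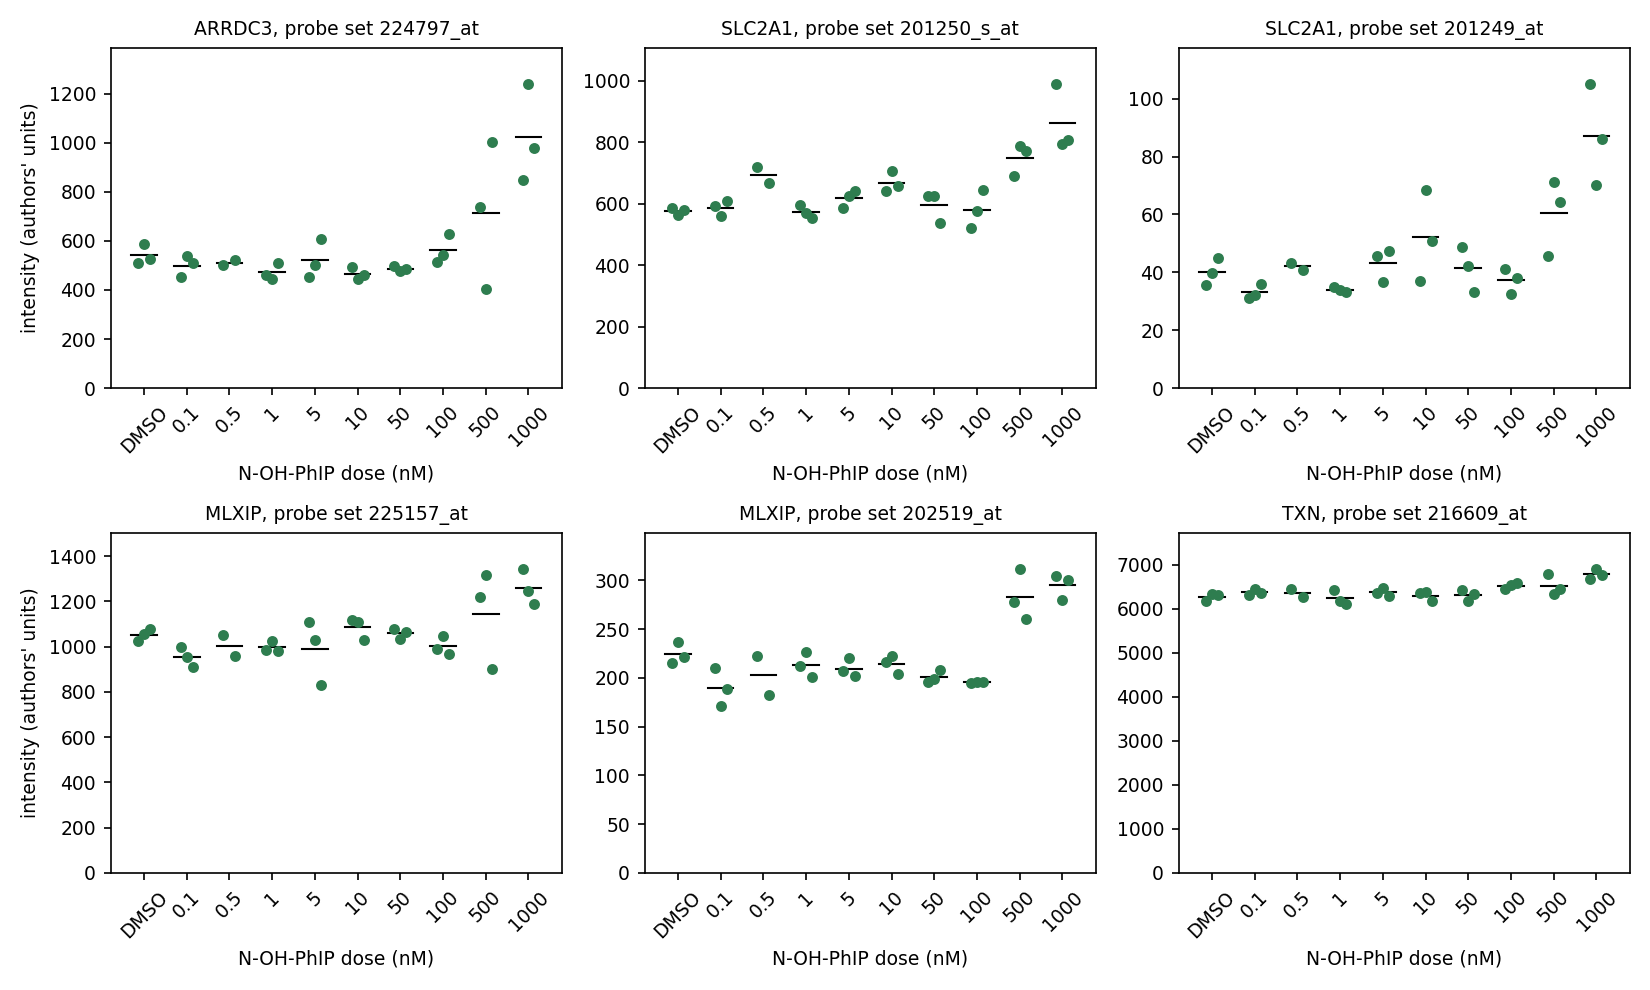
Intensity of the other tested members against N-OH-PhIP dose, with 1 point per array and bars at the group means. All 4 genes lie above DMSO at 1000 nM, the brighter SLC2A1 probe set also lies above it at 0.5, 5 and 10 nM, and the 500 nM arrays of ARRDC3 lie on both sides of DMSO.

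The genes most like these 4 members over the group means were CPD and OPN3 for ARRDC3 (r = 0.99 each), ATF7IP2 and EMSY for TXN (0.95 each), CNST and INTS4 for MLXIP (0.98 each) and TLE1 and SPSB1 for SLC2A1 (0.97 each). Over the same 10 means TXNIP had r = -0.45 with ARRDC3, -0.37 with SLC2A1, -0.36 with TXN and -0.22 with MLXIP.

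The wider pathway was read from 8 lists with 93 genes, of which 75 were measured with 1 probe set each. At 1000 nM 24 rose and 26 fell, with a median change of 0.01, where 27.3% of all 12174 genes rose and 35.8% fell with a median of -0.035. At 500 nM 28 rose and 18 fell, with a median of 0.08, where 25.2% of all genes rose and 24.8% fell with a median of 0.007. At 5 nM 1 gene fell, the ubiquitin ligase ITCH that targets TXNIP, by 0.23 (limma, adjusted p = 0.045), where 0.649% of all genes fell. Of the 6 tested probe sets of ITCH 2 were called lower. The limma fit called 0 of the 75 at 0.1, 0.5, 1 and 10 nM, where it called 0.427%, 0.0329%, 0.739% and 0.263% of all genes. At an unadjusted p under 0.05 these doses had 8, 6, 15 and 8 of the 75, where 11.1%, 9.29%, 12.6% and 12.2% of all genes passed it. At 50 nM 1 gene fell, the ribonucleotide reductase subunit RRM2 (-0.15 ± 0.03, called in 1 of its 2 tested probe sets), where 0.123% of all genes fell. At 100 nM 5 fell and none rose, where 2.04% of all genes fell. They were MSRA (-0.77 ± 0.14), MAP3K5 (-0.41 ± 0.11), ITCH (-0.22 ± 0.06), RRM2 (-0.19 ± 0.03) and MXD1 (-0.19 ± 0.05), and no TXNIP probe set was called at that dose. Of their tested probe sets, 2 of 6 for ITCH, 1 of 2 for RRM2 and 1 of 3 for MXD1 were called lower, and 0 higher.

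Of the 12 measured glucose-responsive targets of MondoA and ChREBP, 6 rose and 4 fell at 1000 nM. For 500 nM the counts were 7 and 3. Over all genes 27.3% rose and 35.8% fell at 1000 nM, and 25.2% rose and 24.8% fell at 500 nM. These shares stand beside the counts of every list below. FASN, the fatty acid synthase, rose from 118 ± 4.72 to 407 ± 38.2 at 1000 nM, by 1.65 ± 0.12 (limma, adjusted p = 1.06e-11). ACACB, a mitochondrial acetyl-CoA carboxylase, fell from 884 ± 14.1 to 315 ± 58.2 (change -1.46 ± 0.09, limma, adjusted p = 1.49e-13). BHLHE40, a circadian and hypoxia-linked repressor, rose by 1.31 ± 0.18 at 500 nM and by 0.88 ± 0.18 at 1000 nM. Targets on this list moved both ways at the top doses, as did all genes, and the part of MondoA was not tested.

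Of the 9 other factors of the MLX and MAX network, 1 rose and 2 fell at 1000 nM. MXI1 rose by 0.38 ± 0.08 and MGA fell by 0.38 ± 0.06, and MAX fell by 0.14 ± 0.05 in a probe set that 3 others of the gene opposed. At 500 nM MXD1 fell by 0.25 ± 0.05, called in 1 of its 3 tested probe sets. MLX fell there by 0.12 ± 0.04 with 1 other probe set called the opposite way. Of 3 other arrestin-domain genes, ARRDC2 rose by 0.59 ± 0.11 at 500 nM and 0.71 ± 0.11 at 1000 nM. ARRDC1 rose by 0.39 ± 0.13 at 500 nM and fell by 0.30 ± 0.13 at 1000 nM, where its other probe set was called the opposite way.

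Among 8 other hexose transporters 2 rose and 4 fell at 1000 nM. SLC2A13, a myo-inositol carrier, fell by 1.44 ± 0.16 and SLC2A10 by 1.28 ± 0.09. SLC2A9, the urate carrier, fell by 1.30 ± 0.10, called in 1 of its 2 tested probe sets. Of 8 genes by which glucose enters metabolism 4 rose and 2 fell. PGD of the pentose phosphate pathway rose by 0.70 ± 0.09 and GPI of glycolysis by 0.63 ± 0.09, and PGLS fell by 0.49 ± 0.11. Of 10 genes for the AMP-activated kinase, which phosphorylates TXNIP, and for its upstream kinases and their partners, 1 rose and 5 fell. The catalytic subunit PRKAA2 fell by 0.76 ± 0.08, called in 3 of its 5 tested probe sets. The regulatory subunit PRKAB1 rose by 1.10 ± 0.11 at 500 nM and 0.49 ± 0.11 at 1000 nM. Of its 2 tested probe sets 2 were called at 500 nM and 1 at 1000 nM.

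Of 16 genes of the thioredoxin system 8 rose and 3 fell at 1000 nM. SRXN1, which repairs oxidized peroxiredoxin, rose by 0.86 ± 0.07 and PRDX4 by 0.54 ± 0.09. MSRA, a methionine sulfoxide reductase, fell by 2.16 ± 0.14 at 500 nM and fell by 1.49 ± 0.14 at 1000 nM. Of 9 genes for the turnover and partners of TXNIP 1 rose and 5 fell at 1000 nM. MAP3K5, the stress kinase held in check by thioredoxin, fell by 1.08 ± 0.11. The ubiquitin ligases NEDD4 and WWP2 fell too, with changes of -0.92 ± 0.08 and -0.78 ± 0.13. WWP2 was called in 1 of its 2 tested probe sets. FBXO32, a muscle-atrophy ubiquitin ligase, rose by 1.00 ± 0.14 at 500 nM.

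**Figure D4:**
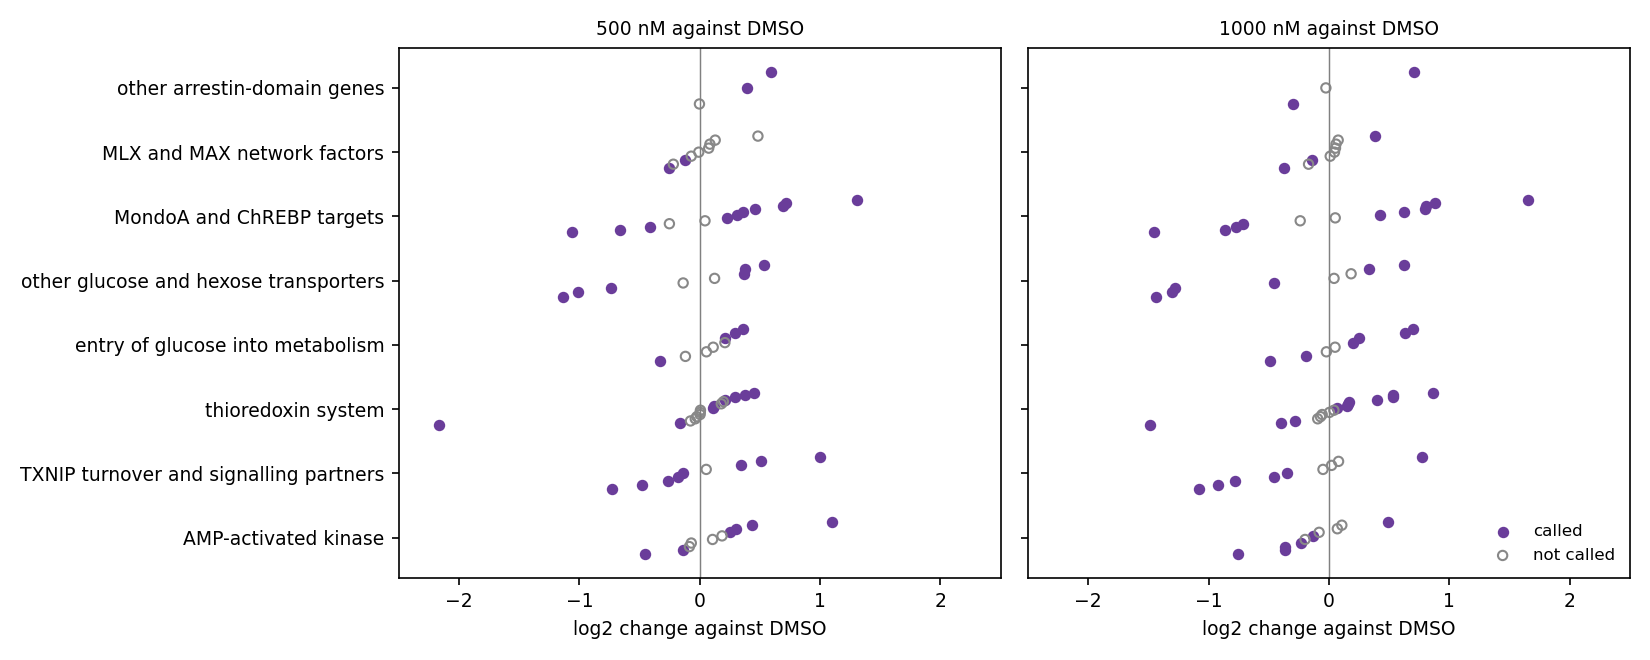
Log2 change from DMSO of the 75 measured pathway genes at 500 and 1000 nM, by list, with filled points for genes called by limma. In each list with more than 3 genes, genes lie on both sides of 0.

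The arrays matched the labelled cell type. All 7 epithelial markers lay above the minimum of 37.4, with a summed level of 19903 to 27147 over the groups, highest at 500 nM. None of the 3 measured leukocyte and 4 endothelial markers did, and of 5 fibroblast markers 1 did, COL1A1, at group means of 601 to 1015. The part of these marker levels in the results was not tested. Within groups, arrays correlated at r = 0.980 to 0.998.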

How the data were processed

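Cultures, groups and replicate numbers were taken from the labels. The authors deposited 1 linear intensity for each probe set and array, made with GCOS per the submitters' processing notes; version and normalization method are not given in the sources used here. Trimmed means of the arrays ran from 299 to 309, a spread of 3.18%, so no further normalization was made. Symbols came from the platform annotation: 41091 of 54675 probe sets had 1 symbol, 1801 several, 11721 none and 62 were controls. Intensities were offset by 16 and taken to log2, which shrinks changes of dim probe sets. The 27307 probe sets with a mean of at least 5.74 (intensity 37.4) were fitted with limma 3.58.1 in R 4.3.3, with a mean for each of 10 groups, two-sided tests, 19 residual degrees of freedom and moderation along a mean-variance trend, adjusted with Benjamini-Hochberg over all of them. The dose trend was a slope on log10 dose. Genes of the wider lists were represented by their probe set of highest mean. Members and lists were chosen with earlier results of these data known. All member probe sets are described, and from each wider list up to 3 called genes at 1000 nM and 2 at 500 nM, by size of change, were eligible to be named, with the genes most like each member over group means. The levels of KLF10 and EGR1, the genes called at 5 to 100 nM and the genes ranked by deviations within groups were chosen after their values were seen. The fit was tested on simulated data. Alternatives were the offset, filter, normalization, moderation, samples fitted, reference arrays, a replicate block, the 3′ to 5′ ratio and leaving out each array. Permutations used numpy 2.4.6 with ranks from scipy 1.17.1, and figures matplotlib 3.10.9. The number of arrays limits the precision, and protein sequences were not used here.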

Additional observations from a re-analysis of the deposited data

How the results depend on the processing

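Among the values of single probe sets under other settings, 765 kept direction and side of the threshold, 40 lost a call, 13 gained 1 and 30 changed sign, of which 24 were called under neither setting. With the 0.1 and 1 nM arrays as the reference in place of DMSO, TXNIP at 500 nM was 0.28, 0.17 and 0.31 from the brightest to the dimmest probe set, the middle TXNIP probe set at 5 nM was 0.018, and ARRDC4 at 500, 1000 and 5 nM was 0.41, 0.35 and 0.052. At 5 nM ARRDC3 was then 0.091, TXN with the larger change 0.0029, and the brighter and dimmer MLXIP 0.011 and 0.057. The brightest TXNIP probe set at 1000 nM was -0.41 there and remained called. With the 3′ to 5′ ratio ARRDC3 at 500, 5 and 1 nM was -0.24, 0.11 and 0.20, and at 1 nM the other TXN probe set was 0.0019 and the brighter SLC2A1 0.036. With median centring the TXN probe set of larger change was 0.014, 0.0053 and 0.0097 at 5, 1 and 0.1 nM, and at 1 nM the other TXN probe set was 0.012 and the brighter SLC2A1 0.015. Leaving out 1 array also turned values that were not called. The brighter MLXIP ran from -0.0068 to 0.26 at 500 nM and from -0.18 to 0.021 at 5 nM, ARRDC3 from -0.18 to 0.032 and TXN of larger change from -0.025 to 0.0074 at 5 nM, and at 1 nM the other TXN ran from -0.031 to 0.0076 and the brighter SLC2A1 from -0.033 to 0.019. In the probe sets that turned against the 0.1 and 1 nM reference, its means lay below DMSO, so changes against it are higher by arithmetic. The cause of the other turns was not tested.

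Wider genes called higher at 1000 nM numbered 13 with the 3′ to 5′ ratio as a covariate against 24, and at 500 nM 15 with only that dose and DMSO fitted against 28. Leaving out 1 array gave 22 to 24 higher and 22 to 26 lower at 1000 nM, and 24 to 29 higher and 17 to 20 lower at 500 nM. Same-numbered arrays did not vary together with DMSO (3 of 26 pairs over 0.1), and with a replicate block 23 rose and 27 fell at 1000 nM, 28 and 18 at 500 nM, and no member's call changed.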
